A study of Fukomys damarensis and Heterocephalus glaber and Mus musculus with 160 samples.

Results

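Some elements of the mouse genome carried the marks of an active enhancer in one tissue and only the methylation of an unacetylated element in the other. They were chosen by the marks themselves, from lists of chromatin immunoprecipitation sequencing (ChIP-seq) peaks on the 19 autosomes. In each tissue, peaks of a mark found in at least 2 libraries were merged into consensus regions, and 2 regions counted as shared when they overlapped by at least 50% of the shorter. A region was active where H3K27ac met H3K4me1 without H3K4me3, and primed where H3K4me1 met neither other mark. A primed-active region was an active region of one tissue that overlapped a primed region of the other. There were 6388 of them among the 51881 active regions of both tissues, and the series held 298064 mouse consensus regions in all. Of these, 2683 were active in liver and primed in heart (liver-active/heart-primed) and 3705 were active in heart and primed in liver (heart-active/liver-primed).

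The series compared regulatory chromatin of liver and heart between mole-rats, guinea pig and mouse, and the mouse libraries are described here. All came from wild-type adult C57BL/6J males of 2 months, a single inbred strain and sex. Liver gave 12 libraries from 4 animals (85920, 85921, 85923 and 85924), each with H3K27ac, H3K4me1 and H3K4me3. Heart gave 17 libraries: 6 of H3K27ac, 5 of H3K4me1 and 6 of H3K4me3, from single animals apart from 1 pool of 3 animals, and no mouse gave both tissues. Whole tissue was fixed, so fewer cells carrying a mark and less of the mark per cell cannot be told apart. Marker genes of liver and heart cell types were not analysed here, because no gene annotation of the mouse build GRCm38 was used, and for the same reason regions are named by position without a gene or a sequence.

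H3K4me1 is laid down at enhancers by the methyltransferases KMT2C and KMT2D, often before the element is used. H3K27ac is added by the acetyltransferases EP300 and CREBBP and accompanies use of the element, while H3K4me3 marks the starts of transcribed genes. An element with H3K4me1 alone is therefore called primed: it is recognised as an enhancer by its methylation but lacks the acetylation found at enhancers in use. Liver and heart both burn fatty acids and share stromal, endothelial and immune cells, beside their own parenchymal cells, the hepatocytes and cardiomyocytes.

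Each library had its own peak list, with 17431 to 129914 peaks, and read depth is unknown. No replicate lists of the same tissue and mark were copies of one another. The highest Jaccard index (bases covered by both lists over bases covered by either) among 58 pairs of replicates was 0.831. Lists of different tissues or marks were not compared in this way. Some libraries stood apart. The library labelled heart H3K4me3 6837 had a peak at 23.2% of liver active regions unmarked in heart, where the other heart H3K4me3 libraries had one at 0 to 0.572%, and it met more liver promoters (94.1%) than heart promoters (88.7%), against its label. The liver H3K4me1 library of animal 85924 had a peak at 19.5% of heart active regions unmarked in liver, against 2.02 to 2.91% in the other 3 animals. The heart H3K4me1 list of the pool was short, at 20521 peaks, and that of animal 33017 was the longest, at 129914 peaks, and carried a tag that the labels do not explain. Counts of regions, class shares and held-out differences are also given with the library labelled heart H3K4me3 6837 and liver H3K4me1 85924 both left out.

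The first question was what becomes of a tissue's active enhancers in the other tissue. The 2683 liver-active/heart-primed regions made up 11% of the 24361 liver active regions, and the 3705 heart-active/liver-primed regions made up 13.5% of the 27520 heart active regions. Read from the primed side, 2676 of 33255 heart primed regions (8.05%) met a liver active region, and 3795 of 30765 liver primed regions (12.3%) met a heart active region. These shares are what the definition of the regions fixes and are given without a test. Without the library labelled heart H3K4me3 6837 and liver H3K4me1 85924, the counts were 2617 and 2570 regions, or 11.6% and 9.18% of active regions, so the larger share in the heart-active/liver-primed direction was not present without them.

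When each active region was put in only 1 class, the most frequent was no mark at all in the other tissue: 53.8% of liver active regions were unmarked in heart and 55.8% of heart active regions were unmarked in liver. The next was an active region in the other tissue as well, at 23.5% and 20.5%. Primed regions with no other mark followed, at 9.82% (Wilson 95% interval 9.46 to 10.2%) of liver and 11.8% (11.4 to 12.2%) of heart active regions. Promoters of the other tissue, regions with both H3K27ac and H3K4me3, took 6.16% and 3.38%. Without the library labelled heart H3K4me3 6837 and liver H3K4me1 85924, the primed class held 10.4% of liver and 7.95% of heart active regions, and in the latter it came after H3K27ac without H3K4 marks (8.72%). Intervals cover counting error only.

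**Figure D1:**
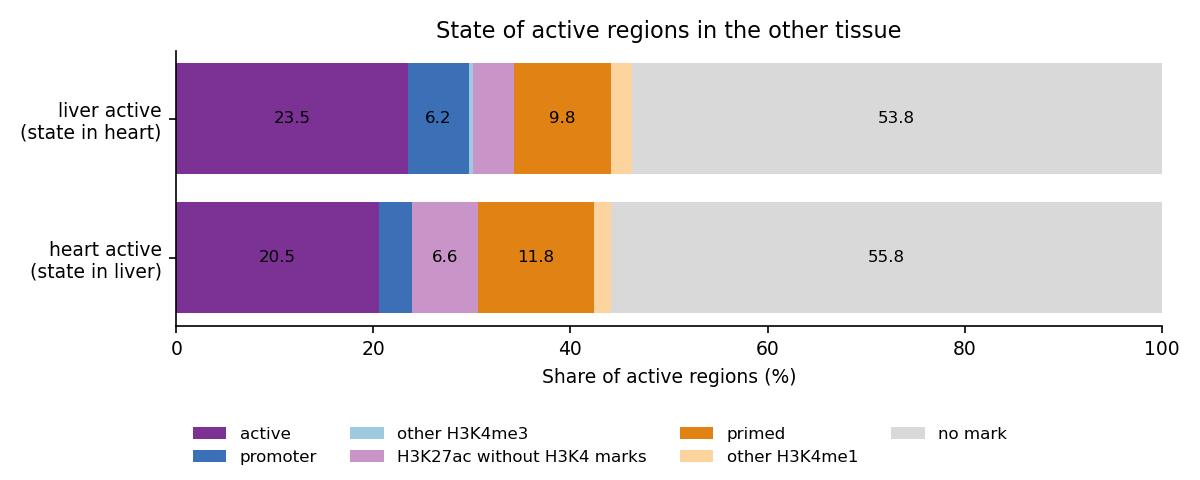
Each bar divides the active regions of one tissue (24361 in liver, 27520 in heart) by their state in the other tissue, as a percentage on the horizontal axis. More than 50% of each bar is unmarked in the other tissue, and the primed class holds 9.82% and 11.8%.

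Primed-active regions were not uniformly bare of acetylation in the primed tissue. A consensus region of H3K27ac in the primed tissue also overlapped 282 of the 2683 liver-active/heart-primed regions (10.5%) and 462 of the 3705 heart-active/liver-primed regions (12.5%), next to the primed stretch. An active region of the primed tissue was itself among these for 165 and 324 regions. Neither H3K27ac nor H3K4me3 of the primed tissue reached consensus at 2393 and 3242 regions. Below the level of consensus, no heart library had an H3K27ac peak at 1560 of the liver-active/heart-primed regions (58.1%), and exactly 1 of the 6 had one at 669 (24.9%). No liver library had one at 2372 of the heart-active/liver-primed regions (64.0%), and 1 of the 4 had one at 734 (19.8%).

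The primed mark was often carried by the minimum of libraries. The matching counts of libraries over all primed and all active regions are not given here. Whether these shares are particular to primed-active regions was therefore not tested. Of the heart primed regions that met a liver active region, 39.4% had an H3K4me1 peak in exactly 2 of the 5 heart libraries and 9.04% in all 5. Of the liver primed regions that met a heart active region, 1518 of 3795 had one in exactly 2 of the 4 liver libraries and 33.2% in all 4. On the active side, all 4 liver libraries had an H3K27ac peak at 64.9% of liver-active/heart-primed regions, and all 6 heart libraries had one at 36.1% of heart-active/liver-primed regions. Few regions lay near the overlap threshold: 111 liver active regions overlapped a heart primed region by 50 to 60% of the shorter, and 97 fell just outside, at 40 to 50%. In the other direction these numbers were 154 and 104.

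Single libraries showed how far the states rest on each. At the liver-active/heart-primed regions, H3K27ac peaks were present at 87.7% in liver 85920, 89.0% in 85921, 87.9% in 85923 and 82.1% in 85924. These shares were close to those of other liver active regions. In the same order they were 85.3, 87.9, 86.1 and 82.0% at those unmarked in heart and 89.8, 91.3, 90.2 and 83.2% at those also active in heart. In the 6 heart H3K27ac libraries the share at liver-active/heart-primed regions ran from 5.70% (6839) through a median of 8.89% to 30.7% (73317). The tissues thus did not overlap. The definition bears on this but does not require it, and 72 of the 2683 regions had an H3K27ac peak in all 6 heart libraries. The heart shares were 0.252 to 3.85% at liver active regions unmarked in heart and 67.9 to 96.9% at those also active in heart. Heart H3K4me1 varied most, with 92.2% in 33017, 77.4% in 17_3498, 56.2% in 17_3500, 53.8% in 17_3501 and 12.2% in the pool. A like spread was seen elsewhere. In the same order the shares were 87.35, 77.0, 48.8, 42.0 and 5.7% at heart primed regions unmarked in liver. They were 94.8, 87.45, 76.8, 71.2 and 30.85% at liver active regions also active in heart. Liver H3K4me1 peaks were found at 93.4%, 95.3% and 95.7% of liver-active/heart-primed regions in 85920, 85921 and 85923. In 85924 they were found at 79.6%, the lowest of the 4. In the same order they were found at 85.3, 91.8, 90.5 and 69.2% of liver active regions unmarked in heart. At those also active in heart the shares were 84.6, 85.9, 89.3 and 89.4%.

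At the heart-active/liver-primed regions, H3K27ac peaks were present at 18.9% in liver 85920, 19.8% in 85921, 18.1% in 85923 and 14.8% in 85924. The 6 heart H3K27ac libraries ran from 53.9% (6839) through a median of 67.2% to 94.9% (73317), again apart from liver. They ran from 46.1% (6839) to 93.7% (73317) at heart active regions unmarked in liver, and from 66.0% (6839) to 96.6% (73317) at those also active in liver. Liver H3K4me1 was found at 64.2%, 68.5%, 75.6% and, in 85924, 84.9% of heart-active/liver-primed regions. In the same order it was found at 63.8, 73.1, 75.55 and 62.7% of liver primed regions unmarked in heart. Only in 85924 was the share at heart-active/liver-primed regions much the higher. H3K4me3 was rare at heart-active/liver-primed regions, at 0.243 to 0.540% in liver. In heart it ran from 0.0810% to 17.5%, the highest being the pool.

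**Figure D2:**
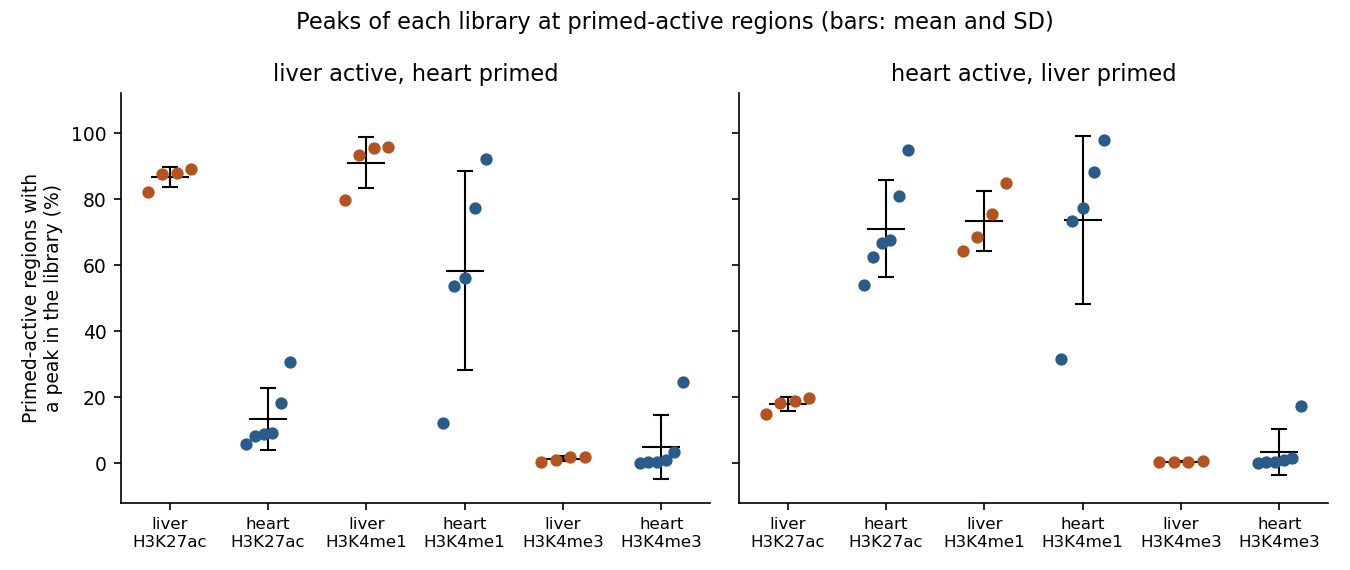
Points are libraries, placed by tissue and mark, and the vertical axis gives the percentage of primed-active regions with a peak in that library, for each direction. Bars give the mean and SD. Heart H3K4me1 is the most spread group, at 12.2 to 92.2% of liver-active/heart-primed regions, and 1 heart H3K4me3 library stands apart in each panel.

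The 4 livers, each with all 3 marks, allowed the states to be called within 1 animal and set against the heart consensus. Regions active in the animal and primed in heart numbered 2812 in 85920, 2863 in 85921, 2861 in 85923 and 2154 in 85924 (2672 ± 346.5, SD, n = 4). Regions active in heart and primed in the animal numbered 3449, 3435, 4038 and 7952 (4718 ± 2174, SD, n = 4). Animal 85924 was the lowest in the first count and the highest in the second, and its liver H3K4me1 list was the longest of the 4, at 113889 peaks against 86486 to 92496. Without its H3K4me1 library alone there were 2551 heart-active/liver-primed regions, 9.27% of heart active regions.

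The remaining comparisons asked how primed-active regions differ from other active and other primed regions, in values of libraries that did not choose them. For each library in turn, all regions and states were rebuilt without it and the regions were then read in that library alone. Differences within a library were tested over the libraries of both tissues with a two-sided exact sign-flip permutation test, adjusted by the Benjamini-Hochberg method over 12 tests. The rebuilt sets share the other libraries, so these values are not fully independent of one another. The smallest p that the test can give is 0.00195 over 10 libraries and 0.00391 over 9.

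Acetylation in the primed tissue was more frequent at primed-active regions than at active regions with no mark there. The held-out liver libraries had an H3K27ac peak at 25.1% (85920), 27.3% (85921), 24.8% (85923) and 18.9% (85924) of heart-active/liver-primed regions, against 4.06%, 4.58%, 4.06% and 2.71% of heart active regions unmarked in liver. The held-out heart libraries had one at 6.96 to 41.5% of liver-active/heart-primed regions, against 0.404 to 6.15% of liver active regions unmarked in heart. Within every one of the 10 libraries the primed-active regions were higher. The mean difference was 17.5 ± 8.41 percentage points (SD, n = 10, exact permutation p = 0.00195, adjusted p = 0.00469). The unmarked regions were chosen for having no H3K27ac consensus in that tissue, which some primed-active regions overlap. With the regions that overlap an H3K27ac or H3K4me3 consensus of the primed tissue left out, the difference was 10.8 percentage points (adjusted p = 0.00937, exact permutation test, range over 7 alternatives 0.00469 to 0.00937). Primed-active regions were also wider than unmarked active regions, with a median of 1178 against 926 bases in liver and 1239 against 916 bases in heart, and the part of width in the difference was not tested.

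Acetylation was also more frequent than at primed regions whose site was unmarked in the other tissue. In the heart libraries 3.71 to 40.8% of heart primed regions that met a liver active region had an H3K27ac peak, against 2.00 to 27.3% of heart primed regions with no mark in liver. In the liver libraries it was 17.9%, 20.4%, 17.6% and, in 85924, 11.7%, against 11.2%, 13.5%, 9.84% and 11.1%. All 10 libraries were higher at primed-active regions, though 85924 by only 0.533 percentage points, and the mean difference was 5.52 ± 4.33 percentage points (SD, n = 10, exact permutation p = 0.00195, adjusted p = 0.00469). With a consensus of at least 3 replicates the difference was 8.46 percentage points (adjusted p = 0.00937, exact permutation test, range over 7 alternatives 0.00469 to 0.0117).

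Without the library labelled heart H3K4me3 6837 and liver H3K4me1 85924, these H3K27ac differences were 18.4 and 5.56 percentage points.

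**Figure D3:**
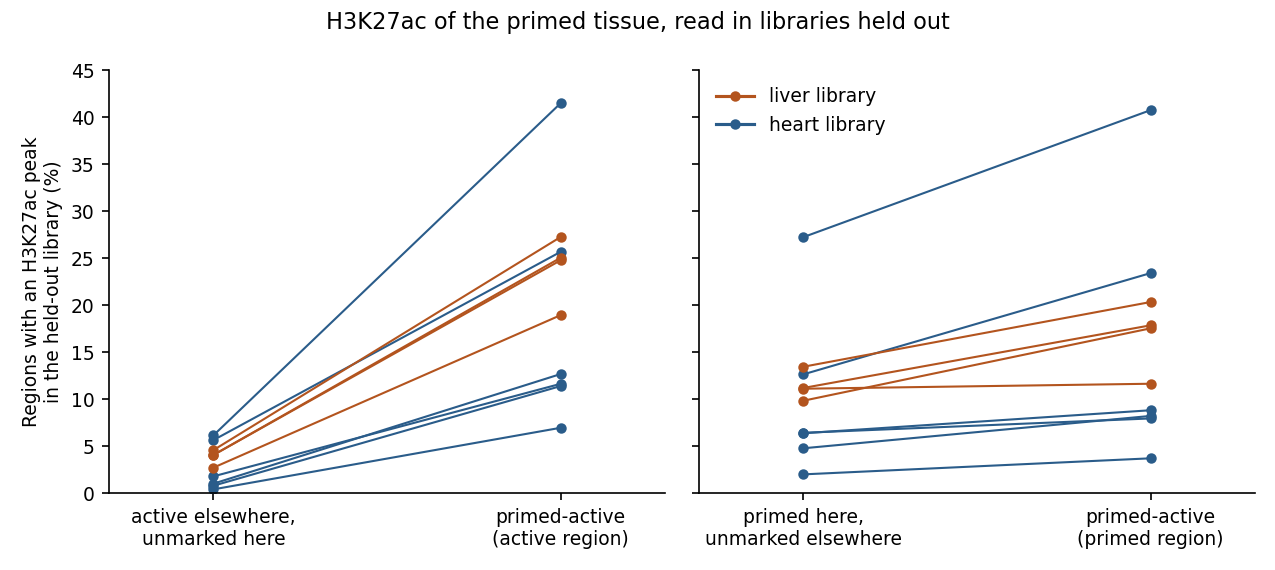
Lines join the 2 values of 1 held-out H3K27ac library, 4 from liver and 6 from heart, and the vertical axis is the percentage of regions with a peak. The left panel sets primed-active regions against active regions unmarked in the primed tissue, and the right panel sets their primed regions against primed regions unmarked in the other tissue. All 10 lines rise in both panels, by 17.5 and 5.52 percentage points on average.

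Where the held-out library had a peak, H3K4me1 enrichment on the primed side lay between that of other primed regions and that of shared active regions. Fold enrichment over background, as the authors' peak caller gave it, was turned into a percentile within each list, because lists differ in scale. Regions without a peak in the held-out list were left out of all medians of percentile, width and summit distance. The share kept differed between sets. With all libraries used, the pool had an H3K4me1 peak at 12.2% of liver-active/heart-primed regions. It had one at 5.7% of heart primed regions unmarked in liver and 30.85% of liver active regions also active in heart. In the heart libraries the median peak at primed-active regions stood at percentile 69.97 (33017), 63.5 (17_3498), 56.3 (17_3500), 59.2 (17_3501) and 52.9 (pool), against 60.1, 55.3, 49.4, 50.7 and 50.1 at regions primed in heart alone. In the liver libraries it stood at 49.9, 48.3, 51.7 and 65.4, against 46.4, 49.1, 47.7 and 62.7. The primed-active regions ranked higher in 8 of 9 libraries, with 85921 the exception. The mean difference was 5.09 ± 3.49 percentile points (SD, n = 9, exact permutation p = 0.00781, adjusted p = 0.0104). It was 3.38 points at 1 base of overlap and 12.8 points at 50% of both regions, with adjusted p of the exact permutation test from 0.00586 to 0.0365 over 7 alternatives.

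Against regions active in both tissues, the primed side ranked lower. The median percentile in liver libraries was 50.6 to 67.8 at heart-active/liver-primed regions and 74.8 to 82.8 at regions active in both. In heart libraries it was 52.6 to 71.6 at liver-active/heart-primed regions and 58.7 to 85.3 at regions active in both. None of the 9 libraries was higher, and the mean difference was -17.7 ± 6.39 percentile points (SD, n = 9, exact permutation p = 0.00391, adjusted p = 0.00586). At 50% of both regions it was -9.38 points, and the adjusted p over 7 alternatives ran from 0.00586 to 0.0104 in the exact permutation test.

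On the active side, H3K4me1 ranked higher at primed-active regions than at active regions unmarked in the other tissue. Each region was read at its highest peak and primed-active regions were the wider set, and the part of width was not tested. Liver libraries stood at percentile 81.1, 82.7, 81.9 and 84.7 against 67.0, 72.1, 69.0 and 76.6. Heart libraries stood at 59.2 to 85.3 against 50.7 to 71.9. All 9 libraries were higher, by 11.98 ± 2.61 percentile points (SD, n = 9, exact permutation p = 0.00391, adjusted p = 0.00586). With an overlap of 50% of both regions the difference was 3.15 points and did not pass (adjusted p = 0.0703, exact permutation test, range over 7 alternatives 0.00670 to 0.0703). Against regions active in both tissues the active side differed by 2.67 ± 3.45 percentile points (SD, n = 9, higher in 7 libraries), which did not pass (exact permutation p = 0.0664, adjusted p = 0.0797). Without the pool that difference was 3.34 points and passed (adjusted p = 0.0281, exact permutation test), as it did at −log10 q of at least 4 (2.67 points). At 50% of both regions it was -7.52 points, in the other direction (adjusted p = 0.00586, range over 7 alternatives 0.00586 to 0.910, exact permutation test).

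The H3K4me1 peak itself was narrower at primed-active regions where the tissue was primed than where it was active. The definition bears on this. A wide H3K4me1 region that contains an H3K27ac or H3K4me3 region cannot be primed, whereas an active region must meet H3K4me1. Widths at other primed and other active regions were not compared. Whether the contrast is particular to primed-active regions was therefore not tested. The liver libraries had a median peak width of 521, 617.5, 626.5 and 675 bases on the primed side and 939, 1241, 1150 and 703 bases on the active side. The heart libraries had 1032 (33017), 686 (17_3498), 613 (17_3500), 623 (17_3501) and 378 (pool) bases on the primed side and 1687, 1146, 913, 876 and 414 bases on the active side. All 9 were narrower on the primed side, the smallest differences being those of 85924 and the pool. The mean difference was -366.3 ± 230.9 bases (SD, n = 9, exact permutation p = 0.00391, adjusted p = 0.00586). With 50% of both regions required it was -62.2 bases and did not pass (adjusted p = 0.260, exact permutation test, range over 7 alternatives 0.00670 to 0.260). That overlap rule keeps regions of like width, and its part in the change was not tested.

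With the library labelled heart H3K4me3 6837 and liver H3K4me1 85924 both left out, the H3K4me1 differences on the primed side were 5.88 percentile points from regions primed alone and -17.2 from regions active in both. On the active side they were 12.1 points from unmarked regions and 1.61 from regions active in both, and peak width differed by -410.1 bases. Each of these stayed on its side of the threshold.

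**Figure D4:**
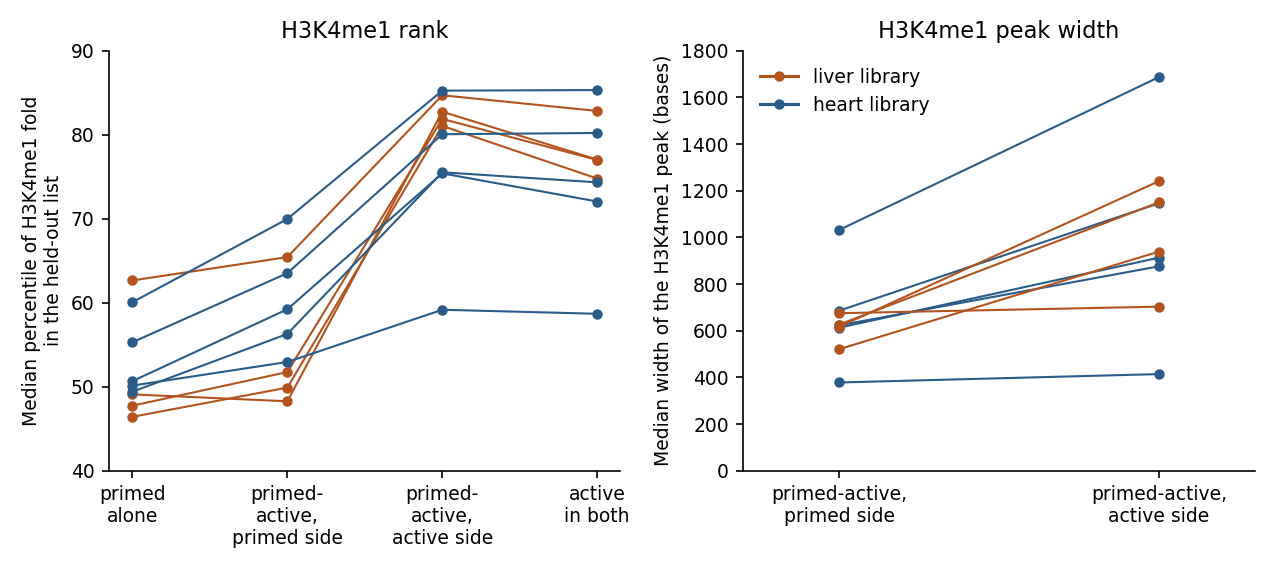
Lines join the values of 1 held-out H3K4me1 library, 4 from liver and 5 from heart, over the regions where that library has a peak. The left panel gives the median percentile of peak fold at regions primed alone, at primed-active regions where the tissue is primed, where it is active, and at regions active in both, and the right panel gives the median peak width in bases at primed-active regions. The primed side lies below the active side in all 9 libraries in both panels.

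Within the consensus regions the same contrast of width stood side by side at single loci. The widest H3K4me1 consensus region was wider in the active tissue than in the primed tissue at 1968 of 2683 liver-active/heart-primed regions (73.3%) and at 3217 of 3705 heart-active/liver-primed regions (86.8%). Median widths were 1896 bases in liver and 1054 in heart at the first set, and 2242 bases in heart and 851 in liver at the second. The midpoints of the active and the primed region were a median of 356.5 and 306.5 bases apart, and the primed region lay wholly inside the active one in 37.7% and 45.4% of overlapping pairs. These widths come from the lists that chose the regions, the definition bears on them as above, and they carry no test. The distance from the H3K4me1 summit to the midpoint of the active H3K27ac region, read in held-out libraries, differed by -25.2 ± 39.5 bases between the primed and the active side (SD, n = 9, exact permutation p = 0.0938, adjusted p = 0.102) and did not pass. It was 8.72 bases at 1 base of overlap and 2.00 at 50% of both regions, in the other direction, -14.6 with equal numbers of peaks and -36.5 with the library labelled heart H3K4me3 6837 and liver H3K4me1 85924 left out (not passing).

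H3K27ac on the active side ranked slightly higher at primed-active regions than at active regions unmarked in the other tissue. Here too the wider primed-active regions were read at their highest peak, and the part of width was not tested. Liver libraries stood at percentile 61.3, 63.0, 61.5 and 61.8 against 60.3, 61.4, 59.6 and 60.8, and heart libraries at 52.6 to 73.4 against 46.0 to 69.2. All 10 were higher, by 4.24 ± 2.76 percentile points (SD, n = 10, exact permutation p = 0.00195, adjusted p = 0.00469), by 2.48 points at 50% of both regions, by 2.79 with a consensus of at least 3 replicates and by 4.26 without the library labelled heart H3K4me3 6837 and liver H3K4me1 85924. The call was lost when regions overlapping other marks of the primed tissue were left out (0.643 points) and turned in direction with equal numbers of peaks (-2.84 points), with adjusted p of the exact permutation test from 0.00469 to 0.382 over 7 alternatives. Against regions active in both tissues the difference was -1.34 ± 4.02 points (SD, n = 10, higher in 4 libraries, exact permutation p = 0.305, adjusted p = 0.305). Its 7 alternatives ran from -9.22 to -1.67 points (adjusted p 0.00469 to 0.290, exact permutation test), and without the libraries labelled heart H3K4me3 6837 and liver H3K4me1 85924 it was -2.56 points and passed (adjusted p = 0.0352). It was -2.03 points without liver H3K27ac 85924 and -0.769 without the pool.

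H3K4me3 was rare at primed-active regions. On the primed side the reference, active regions unmarked in that tissue, was chosen for having no H3K4me3 consensus there, while 27 and 9 primed-active regions overlapped one, so the choice of sets bears on the direction of the difference. The liver libraries had a peak at 0.270 to 0.593% against 0.00651 to 0.0586%. The heart libraries other than 6837 had one at 0.112 to 3.76% against 0 to 0.731%, and the library labelled heart H3K4me3 6837 at 24.9% against 23.4%. All 10 libraries were higher at primed-active regions, by 0.737 ± 1.02 percentage points (SD, n = 10, exact permutation p = 0.00195, adjusted p = 0.00469), and by 0.439 points without the pool. With both sets held to the same condition, by leaving out regions that carry other marks in the primed tissue, the difference was 0.0572 points (adjusted p = 0.592, exact permutation test) and did not pass. It was 0.0642 points (adjusted p = 0.910) with equal numbers of peaks and 0.848 (adjusted p = 0.0539) with a consensus of at least 3 replicates, in the exact permutation test, and neither passed. On the active side the difference from active regions unmarked in the other tissue was 2.36 ± 4.35 percentage points (SD, n = 10, higher in 10 libraries, exact permutation p = 0.00195, adjusted p = 0.00469), and 0.994 points without the pool, whose share was 21.7% against 7.11%. With the library labelled heart H3K4me3 6837 and liver H3K4me1 85924 both left out and all regions rebuilt, the differences were 0.778 points on the primed side and 2.54 on the active side. With only the value of 6837 dropped and the regions not rebuilt, they were 0.654 and 2.44.

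The surroundings of the regions differed from those of unmarked active regions, given here as descriptions. A promoter of the active tissue lay within 10 kb of 41.5% of liver-active/heart-primed regions, 34.1% of liver active regions unmarked in heart and 34.8% of those also active in heart. The matching shares were 38.5%, 27.5% and 38.1% for heart active regions. That nearest promoter had no mark in the other tissue for 6.30% and 5.61% of primed-active regions, 16.1% and 11.4% of regions unmarked there, and 4.07% and 4.38% of regions active in both. Enhancers active in the primed tissue were also close: at least 1 lay within 50 kb of 78.5% and 81.5% of primed-active regions, 56.4% and 62.0% of unmarked regions, and 94.2% and 92.1% of regions active in both. In these 3 measures the primed-active regions stood between the other classes in the presence of active enhancers and of unmarked promoters, but not in the nearness of a promoter.

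With gaps of up to 12.5 kb joined into runs, 39.7% of liver-active/heart-primed and 40.5% of heart-active/liver-primed regions shared a run with another of the same direction. For comparison, such a region lay within the same distance of 14.1% of liver active regions unmarked in heart and 15.0% of those active in both, and of 20.6% and 24.9% of the matching heart regions, again as a description without a test. How often those other classes lie near another of their own class was not measured. Some neighbours met the same primed region. Of the primed regions that met a primed-active region, 146 of 2676 in heart and 143 of 3795 in liver met 2 or more. Of the runs, 140 and 181 held at least 3 regions. The longest liver-active/heart-primed run held 10 regions in chr8:22867302-22896054 (GRCm38), followed by 8 in chr2:160846905-160861580. The longest heart-active/liver-primed runs held 8 regions each, in chr14:25585345-25637791 and chr14:121337897-121373612. A region of the opposite direction lay within 50 kb of 34.7% of liver-active/heart-primed and 27.7% of heart-active/liver-primed regions, between the shares of unmarked active regions (18.8% and 15.9%) and of regions active in both (56.4% and 39.9%). By autosome the share of active regions that were primed-active ran from 8.91 to 14.3% for liver and from 11.5 to 14.9% for heart.

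Only a small part of the regions met the strictest reading of the states, with an H3K27ac peak in every library of the active tissue, an H3K4me1 peak in every library of the primed tissue and neither other mark in any library of the primed tissue. In the liver-active/heart-primed direction 22 did so (0.820%), and in the heart-active/liver-primed direction 189 (5.10%). When H3K4me1 in every primed library was not asked for, 586 and 579 were left. The matching shares over all active and all primed regions are not given. Whether these small shares are particular to primed-active regions was therefore not tested. The short heart H3K4me1 list of the pool, with a peak at 12.2% of liver-active/heart-primed regions, is among the lists the first number asks for. The regions below are the ones with the highest mean H3K27ac fold among these outside chromosome 18 (which held 2 of the 22 and 11 of the 189), 6 for each direction, and their values are shown as examples of the pattern and not as a test of it.

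Of these strict liver-active/heart-primed regions, the one with the highest mean H3K27ac fold was chr2:160849443-160851771, 2329 bases long and inside the run of 8 named above. Its liver H3K27ac fold enrichment over background was 15.6 in 85920, 13.6 in 85921, 6.79 in 85923 and 8.49 in 85924, a mean of 11.1 ± 4.17 (SD, n = 4). Heart H3K4me1 fold was 5.04 in 33017, 4.17 in the pool, 9.13 in 17_3498, 7.44 in 17_3501 and 8.57 in 17_3500. Every heart library thus had the primed mark there, liver H3K4me1 was found in 3 of 4 animals and not in 85924, and no heart library had an H3K27ac peak. Around it, within 50 kb, lay 11 liver active regions and 1 heart active region.

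The next was chr9:46066569-46068484, with liver H3K27ac folds of 7.82, 12.7, 8.37 and 14.6 in the 4 animals in the same order. Its heart H3K4me1 folds were 3.89 in 33017, 4.75 in the pool, 7.75 in 17_3498, 6.64 in 17_3501 and 3.69 in 17_3500. The region chr7:34295522-34296877 had liver H3K27ac folds of 10.2, 8.91, 13.4 and 8.96 and heart H3K4me1 folds of 3.87 to 6.73. The other 3 were chr3:98016112-98018732, chr6:7847377-7849030 and chr14:120318029-120320115, whose mean liver H3K27ac folds were 9.72, 9.41 and 8.07. The chr6 region had an H3K4me3 peak in 1 liver library (85920, fold 6.03) and lay 1434 bases from a liver promoter, so it is the one of the 6 where the active state without H3K4me3 was not uniform.

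The heart-active/liver-primed examples were broader. The region chr8:125512326-125519720 spanned 7395 bases in heart, with H3K27ac folds from 7.50 (17_36584) through a median of 15.7 to 23.8 (33018) over the 6 heart libraries. The liver primed region inside it, chr8:125515610-125517434, was 1825 bases long, and its H3K4me1 fold was 6.40, 6.16, 6.46 and 8.26 in the 4 livers. It lay among 22 heart active regions and 1 liver active region within 50 kb. All 6 heart lists held the H3K27ac peak and all 4 liver lists the H3K4me1 peak, and the H3K27ac fold of the highest heart was over 3 times that of the lowest.

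At chr5:76025722-76031587 the heart H3K27ac fold ran from 7.95 through a median of 14.8 to 21.5, and the liver H3K4me1 fold was 8.03, 5.90, 4.77 and 8.57. At chr8:124641188-124646577 it ran from 6.30 through 13.7 to 23.9, and liver H3K4me1 was 5.13, 4.67, 5.93 and 9.41. The H3K4me1 fold of 85924 was the highest of the 4 livers at all 3 of these loci. The median fold of its whole list was also the highest, at 6.51 against 5.02 to 5.29, so this is not particular to these examples. The other 3 regions were chr13:46570649-46573834, chr8:105471606-105476783 and chr9:118730329-118735300, with mean heart H3K27ac folds of 13.6, 13.4 and 12.8. The first of them had an H3K4me3 peak in 2 heart libraries and the second in 1, the latter 185 bases from a heart promoter.

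Over all 2683 liver-active/heart-primed regions the mean H3K27ac fold in liver ran from 2.87 through a median of 6.80 to 69.5, and over the 3705 heart-active/liver-primed regions the heart fold ran from 2.94 through 5.90 to 25.4. The examples above thus lie above the median of their direction, and folds are not compared between the tissues, whose lists were scaled separately.

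The size of the set depended on how it was built. Leaving out each of the 29 libraries in turn gave 1820 to 3334 liver-active/heart-primed regions, the lowest without heart H3K4me1 33017 and the highest without heart H3K27ac 73317. It gave 2551 to 4165 heart-active/liver-primed regions, the lowest without liver H3K4me1 85924 and the highest without liver H3K27ac 85921. The heart H3K4me1 lists carry 2 different prefixes in their names, 1 of them in 3 lists. With those 3 libraries alone the counts were 1785 and 3105. With every library cut to the length of the shortest list of its mark, only 569 and 179 regions were left, and the heart-active/liver-primed direction was then the smaller one.

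**Figure D5:**
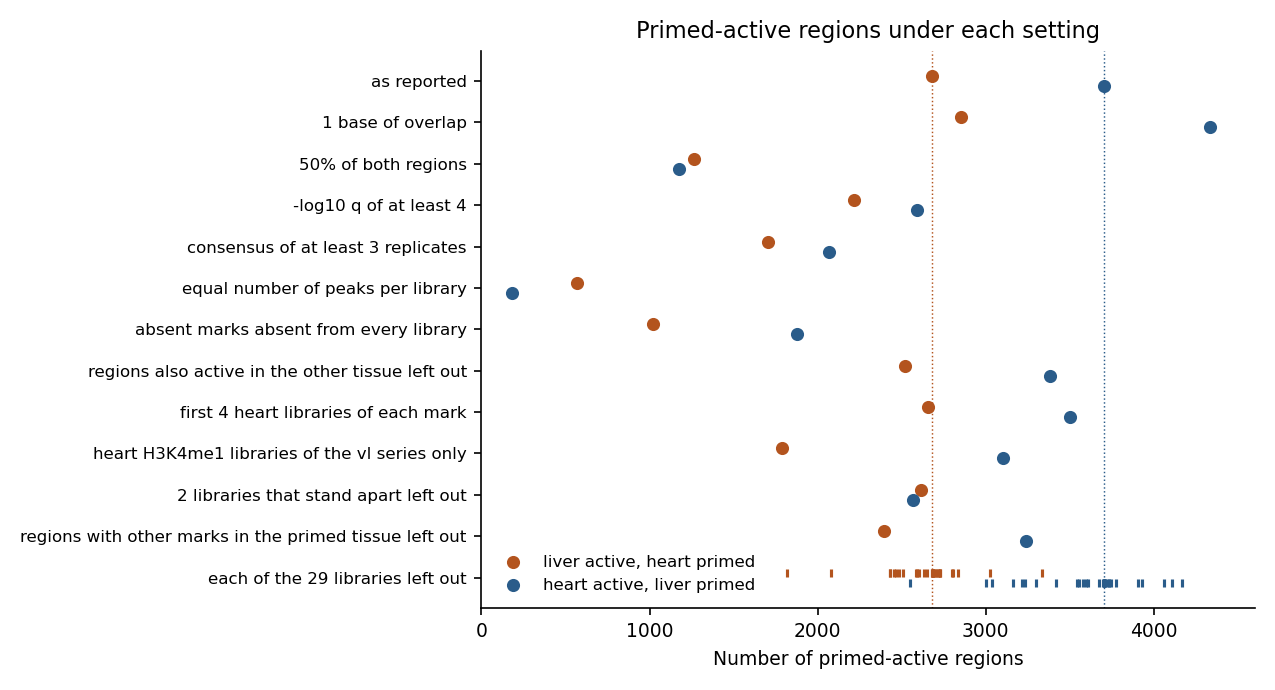
Points give the number of primed-active regions in each direction under each setting, and ticks in the lowest row give the counts with each of the 29 libraries left out. Dotted lines stand at the reported 2683 and 3705. The counts are lowest when every library is cut to the same number of peaks (569 and 179) and highest for heart-active/liver-primed regions at 1 base of overlap (4336).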

How the data were processed

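ChIP-seq peak lists of 29 mouse libraries (4 livers, 17 heart libraries; 3 histone marks) were used as deposited. Peaks were called with MACS2 per the submitters' processing notes, with 1 list per library against a named input and build GRCm38 per the file names; for the aligner and all versions, nothing is given in the sources used here. Fold enrichment, as deposited by the authors, is a ratio to background on a linear scale. The authors also deposited a −log10 p-value and a −log10 q-value for each peak; no q was below 1.30 on that scale. The deposited score is 10 times the −log10 q. The summit offset was deposited by the authors in bases (other). Read depth is unknown, and the number of libraries limits the precision.

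From these lists, 1684472 autosomal peaks gave consensus regions (at least 2 replicates, 50% of the shorter), states and the overlaps; Wilson 95% intervals cover counting error only. SciPy 1.17.1, NumPy 2.4.6 and pandas 2.3.3 were run under Python 3.11.15, plots were made in Matplotlib 3.10.9, and the scripts were tested on simulated lists. Held-out values were tested with two-sided exact sign-flip permutation tests (12 tests, Benjamini-Hochberg, threshold 0.05). Named regions were the 6 per direction with the highest mean H3K27ac fold among those with the defining marks in every library and the absent marks in none of the primed tissue, outside chromosome 18. The alternatives were the overlap, the threshold, 3 replicates, equal list lengths, library subsets and leaving out each library. The regions and lists were chosen with earlier results of these data known. Motifs, sequences, genes and cell type markers were not analysed here.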

Additional observations from a re-analysis of the deposited data

Results flagged for a closer look

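In 38 groups of 4 to 6 libraries or animals, 8 values stood far from the rest of their group by Dixon's criterion, where chance flags about 1 group in 20. Animal 85924 gave 4 of them. Its H3K4me1 library had a peak at only 79.6% of liver-active/heart-primed regions, and its own states gave 2154 regions active in the animal and primed in heart, the lowest, and 7952 active in heart and primed in the animal, the highest. Its held-out H3K27ac difference between primed-active regions and regions primed in liver alone was the lowest of the 4, at 0.533 percentage points. The library labelled heart H3K4me3 6837 had a peak at 24.6% of liver-active/heart-primed regions, the highest of its group. The pooled heart sample gave the other 3. Its H3K4me3 library had a peak at 17.5% of heart-active/liver-primed regions, its held-out H3K4me3 difference on the active side was 14.6 percentage points, and its held-out H3K27ac difference from regions active in both was -6.51 percentile points, the lowest of the 6 hearts.

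The tissues moved in opposite directions in 2 comparisons, and the difference between them was not tested. Against regions active in both tissues, H3K27ac of the active tissue ranked higher at primed-active regions in all 4 liver libraries, by a mean of 3.16 percentile points, and lower in all 6 heart libraries, by a mean of -4.34. The H3K4me1 summit lay farther from the midpoint of the active region on the primed side than on the active side in all 4 liver libraries, by a mean of 14.5 bases, and nearer in all 5 heart libraries, with a mean of -57.1 bases.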

How the results depend on the processing

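No paired analysis was possible because no mouse gave both liver and heart libraries. The numbers of liver-active/heart-primed and heart-active/liver-primed regions moved by over 1.5 times to 1266 and 1176 at 50% of both regions, 1707 and 2068 with 3 replicates, 569 and 179 with equal list lengths, 1018 and 1878 with absent marks absent from every library, and to 1785 in the first direction with 3 heart H3K4me1 libraries of 1 prefix. H3K27ac of the active tissue against unmarked regions was -2.84 with equal lengths and 0.643 without regions carrying other marks in the primed tissue. Against regions active in both it passed at -7.95 (50% of both), -2.55 (3 replicates), -9.22 (equal lengths), -2.56 (without the libraries labelled heart H3K4me3 6837 and liver H3K4me1 85924) and -5.99 (without other marks). H3K4me1 of the active tissue was 3.15 against unmarked regions and -7.52 against regions active in both at 50% of both; the latter passed at 2.67 with −log10 q of at least 4, and leaving out a library gave 2.11 to 3.34, passing only without the pool. The summit distance was 8.72 (1 base), 2.00 (50% of both) and -23.8, passing, without other marks. Peak width was -62.2 at 50% of both. H3K4me3 on the primed side was 0.848 (3 replicates), 0.0642 (equal lengths) and 0.0572 (without other marks). The cause of these changes was not tested. The 2 exclusions were chosen after seeing the data. The other differences kept their direction and their side of the threshold, also with the value of each library of the tested mark dropped. In that last check the regions were not rebuilt without the library. Motif windows and gene distances were not run. Depth is unknown, so absent peaks were not detectable at this depth.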
